A study of Mus musculus with 6 samples.

Results

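Genes that answer to the Notch receptor or tune it were followed in Ink4a/Arf-/- mouse astrocytes that overexpressed the Notch ligand JAG1. The 10 genes were taken by symbol from the 23282 gene rows of the deposited tables, where they are written in capitals as HES1, HES6, HEY1, HEY2, HEYL, NRARP, LFNG, DTX4, NOTCH1 and NOTCH2. Each had 1 row in every table. They were listed by symbol, with no threshold on a measured value, but the list was drawn up with earlier results of these data known. The cells are cultured murine astrocytes from brain, grown in DMEM with fetal bovine serum. Both groups alike lack Ink4a/Arf, a locus that encodes the tumor suppressors Ink4a and Arf; the sample labels write the genotype as Ink4a -/-, without Arf. In the control group the cells carried the empty vector pcDNA3.1-puro and in the JAG1 group pcDNA3.1-JAG1-puro, with 3 libraries in each. The genotype label of the control libraries reads WT, which was taken to mean without the JAG1 vector. Animal age, whether a line was a single clone, and whether separate transfections lie behind the 3 libraries within a group are not given in the sources used here, so that the p-values measure the spread between these libraries, which may be technical.

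Notch is a receptor at the cell surface that is activated by ligands on neighbouring cells. Binding leads to cleavage by an ADAM protease and then by gamma-secretase, and the freed intracellular domain enters the nucleus, joins the DNA-binding protein RBPJ and a Mastermind coactivator, and switches on target genes. Among the best known targets are Hes1 and the HEY genes, which encode basic helix-loop-helix repressors, and Nrarp, whose small ankyrin-repeat protein acts back on the Notch intracellular domain as an inhibitor. In the developing brain, Hes1 keeps neural progenitors from becoming neurons, whereas Hes6 counteracts Hes1. Lfng encodes a fringe glycosyltransferase that adds sugar to the receptor and changes which ligands it prefers, and Dtx4 encodes a Deltex ubiquitin ligase that acts on Notch at the membrane. A JAG1 ligand can activate Notch on the cell that it touches and can inhibit Notch within its own cell.

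The promoters of these genes were searched for the letters that RBPJ binds, since this is the sequence through which Notch reaches its targets. RefSeq sequences of GRCm38.p6, from 250 bases before to 50 bases after each start site, matched 6 of the 10 genes, and Hes1, Hey1, Heyl and Dtx4 had no entry. The core TGGGAA, on either strand, occurred in 25.6% of all 32851 promoter windows of this length and the longer form GTGGGAA, which contains it, in 6.38%. The windows of Nrarp and Notch1 are shown because both genes rose, and those of Lfng and Hey2 because they hold the letters; the capitals mark each match to TGGGAA or GTGGGAA, and every sequence runs 5′ to 3′ on the strand of the gene.
Nrarp promoter, chr2:25180508-25180807, plus strand: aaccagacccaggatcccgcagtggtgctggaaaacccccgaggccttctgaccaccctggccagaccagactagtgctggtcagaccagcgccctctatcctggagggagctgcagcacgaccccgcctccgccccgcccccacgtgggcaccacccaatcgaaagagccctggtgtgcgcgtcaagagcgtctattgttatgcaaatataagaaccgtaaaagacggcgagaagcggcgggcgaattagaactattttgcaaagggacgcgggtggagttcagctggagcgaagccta
Notch1 promoter, chr2:26503773-26504072, minus strand: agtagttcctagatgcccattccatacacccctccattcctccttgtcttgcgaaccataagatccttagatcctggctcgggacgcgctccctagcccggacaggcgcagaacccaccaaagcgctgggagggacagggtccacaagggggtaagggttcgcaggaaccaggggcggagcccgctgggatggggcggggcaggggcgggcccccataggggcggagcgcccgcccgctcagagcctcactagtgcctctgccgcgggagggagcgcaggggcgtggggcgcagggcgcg
Lfng promoter, chr5:140607091-140607390, plus strand: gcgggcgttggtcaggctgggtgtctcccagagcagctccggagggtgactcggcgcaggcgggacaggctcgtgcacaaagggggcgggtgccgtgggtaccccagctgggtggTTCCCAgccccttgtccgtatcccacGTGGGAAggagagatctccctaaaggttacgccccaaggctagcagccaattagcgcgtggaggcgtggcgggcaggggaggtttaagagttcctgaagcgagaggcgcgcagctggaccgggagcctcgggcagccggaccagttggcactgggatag
Hey2 promoter, chr10:30842734-30843033, minus strand: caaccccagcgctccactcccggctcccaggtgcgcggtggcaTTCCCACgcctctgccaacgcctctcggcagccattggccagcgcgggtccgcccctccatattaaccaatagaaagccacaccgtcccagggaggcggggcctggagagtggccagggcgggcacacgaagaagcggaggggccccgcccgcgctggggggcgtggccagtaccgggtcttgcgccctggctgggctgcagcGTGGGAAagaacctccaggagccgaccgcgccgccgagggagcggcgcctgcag
The windows of Nrarp and Notch1, and likewise both windows of Hes6 and that of Notch2, did not contain TGGGAA on either strand. With the first transcribed base counted as 0, the Lfng window held GTGGGAA at -109 to -103 and TGGGAA on the opposite strand at -135 to -130. The Hey2 window held GTGGGAA on the opposite strand at -207 to -201 and on its own strand at -4 to 2, and 0.256% of all windows held GTGGGAA at 2 or more places. The E-box CACGTG, a sequence that basic helix-loop-helix proteins bind, occurred in 7.15% of all windows. It was at -108 to -103 in the Nrarp window, and at -112 to -107 in the Lfng window, where it overlaps GTGGGAA. The HES site CACGNG and the N-box CACNAG, with N for any base, were also searched and occurred in 27.5% and 42.5% of all windows. CACGNG was in windows of Hes6, Nrarp, Lfng and Notch2, and CACNAG was in windows of these genes and of Notch1. A match is a description of these windows and no measure of binding. RBPJ sites outside these windows, or with letters other than TGGGAA, were not searched for. A window without a match therefore does not show that the gene has no such site.

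The libraries held between 14341634 and 20489062 counted reads. They were made with a kit that reads the 3′ end of polyadenylated RNA, so that counts do not grow with transcript length. Of the 11712 genes with enough reads to be tested, 55.1% were called at an adjusted p under 0.05 by edgeR's quasi-likelihood test, 27.4% higher and 27.7% lower in JAG1 libraries, so that a call by itself sets no gene apart here. Other features of the cells moved with the groups as well. Of 10 astrocyte markers, Gfap and Aqp4 had no read in any library and Slc1a2 and Slc1a3 had at most 2, and the 6 that were tested were all lower in JAG1 libraries; their summed level was 337 to 398 CPM in control and 123 to 137 CPM in JAG1 libraries. For 7 fibroblast or mural markers, of which Lum and Rgs5 had no read, the sum was 815 to 852 CPM in control and 269 to 305 CPM in JAG1 libraries, and all 5 tested genes fell. The sum of 6 neuronal markers, of which Snap25 and Syt1 had no read, was 100.3 to 110 CPM in control and 58.6 to 61.7 CPM in JAG1 libraries; of the 3 tested, Map2 rose and Tubb3 and Stmn2 fell. The sums for markers of the oligodendrocyte lineage, microglia and endothelium were at most 4.80 CPM in every library. The Y-linked genes Ddx3y, Eif2s3y, Kdm5d and Uty were all higher in JAG1 libraries, from 1.96-fold for Kdm5d to 3.02-fold for Uty. Whole chromosomes were also shifted. On chromosome 19 the median log2 fold change was 0.61, with 313 of 422 tested genes higher and 31 lower, and on chromosome 15 it was -0.53, with 32 of 459 higher and 346 lower; of the 10 genes, Dtx4 is on chromosome 19 and none is on chromosome 15. Differences between the cells of the groups other than the JAG1 vector cannot be told apart from its effect, and the part of these shifts in the results below was not tested. In such bulk RNA, fewer cells that express a gene cannot be told apart from less RNA per cell.

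Of the 10 genes, 7 had enough reads to be tested. Nrarp, Hes1 and Notch1 rose, Hes6 and Notch2 fell, and Lfng and Dtx4 were not called. At 2-fold or more, 3 were higher, beside 5.46% of all tested genes, and 1 was lower, beside 8.49%. The groups did not overlap for 5 of the 7, beside 62.0% of all tested genes. In 3 of these every JAG1 library was above every control library, beside 31.1%, and in 2 every JAG1 library was below, beside 30.9%. Hey1 had a few reads, and Hey2 and Heyl had none. The median log2 fold change was 0.04 over the 7 tested genes and 0.0039 over all tested genes.

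**Figure D1:**
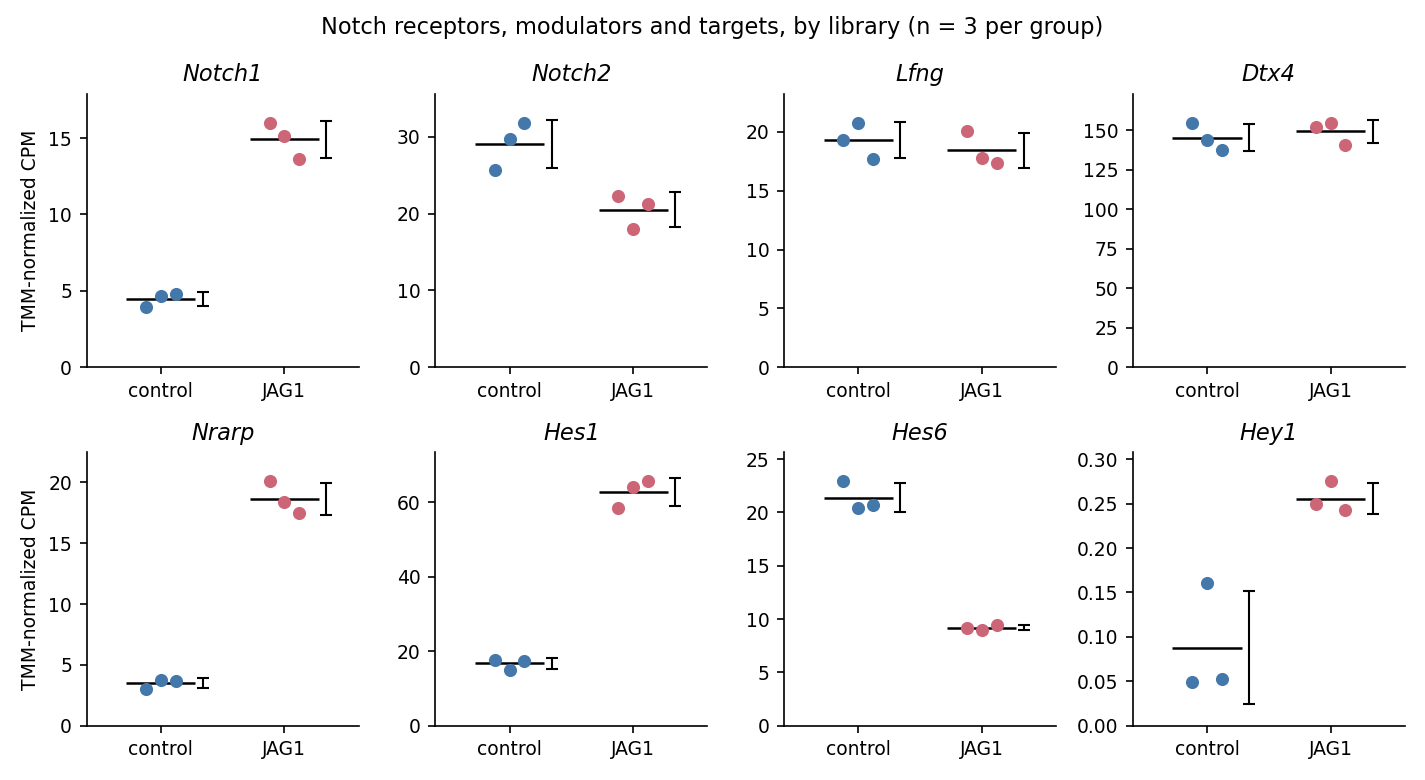
Each panel shows 1 gene, with TMM-normalized CPM on the vertical axis from 0 and the group on the horizontal axis. Points are the 3 libraries of a group, the black line is their mean and the bar beside it is the SD. For Notch1, Nrarp and Hes1 all JAG1 points lie above all control points, for Notch2 and Hes6 they lie below, for Lfng and Dtx4 the groups overlap, and Hey1 stays at or under 0.275 CPM.

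Jag1, the overexpressed gene, was read first as a check of the labels. It had 8.99, 10.8 and 11.2 CPM (reads per 1e6 after TMM normalization) in the control libraries and 15.2, 13.6 and 13.8 CPM in the JAG1 libraries. All 3 JAG1 libraries were above all 3 control libraries (log2 fold change 0.46, standard error 0.11, adjusted p = 0.00446). The rise was 1.37-fold, and 36.4% of all tested genes changed by more in either direction. Such a separation upward was seen for 31.1% of all tested genes, so that this check cannot establish the labels or the overexpression. The libraries read 3′ ends and the sources used here do not say where a transcript of the plasmid ends, so that it is not known whether the Jag1 row counts it. The other ligands of the delta and jagged families were scarce. Jag2 had 8, 1 and 4 reads in control and 9, 13 and 14 in JAG1 libraries, Dll1 had 19, 9 and 16 reads in control and 4, 4 and 2 in JAG1 libraries, and Dll3 and Dll4 had at most 2 reads in any library; none of these was tested.

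The receptors Notch1 and Notch2 moved in opposite directions. Notch1 had 3.95, 4.67 and 4.81 CPM in control libraries and 16.0, 15.1 and 13.6 CPM in JAG1 libraries. Its JAG1 libraries were thus all high, averaging 14.9 ± 1.21 CPM against 4.48 ± 0.462 CPM in control (SD, n = 3 each), or 3.33-fold. This is a log2 fold change of 1.74 (standard error 0.12, 95% interval 1.47 to 2.01, adjusted p = 4.59e-07), the 305th highest of the 11712 tested genes. Notch2, the receptor with more reads in every library, had 25.7, 29.7 and 31.8 CPM in control and 22.3, 18.0 and 21.2 CPM in JAG1 libraries. The JAG1 libraries were all below the control libraries, but the nearest libraries of the groups differed by less than the range within a group, and the means were 20.5 ± 2.27 CPM in JAG1 and 29.1 ± 3.11 CPM in control astrocytes (SD, n = 3 each). Its log2 fold change was -0.50 (standard error 0.11, 95% interval -0.73 to -0.26, adjusted p = 0.00207), a change whose size 33.6% of all tested genes exceeded. Notch3 had at most 3 reads in a library and Notch4 at most 10, and neither was tested.

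The receptor reads were divided differently in the groups, while no change in their sum was detected. Reads of Notch1 to Notch4 together came to 30.0, 35.0 and 36.9 CPM in control and 38.8, 33.4 and 34.9 CPM in JAG1 libraries (two-sided exact permutation test over libraries, p = 0.6). Notch1 made up 13.2%, 13.4% and 13.0% of these reads in control libraries and 41.3%, 45.4% and 39.0% in JAG1 libraries. Its share was thus nearly the same in the 3 control libraries and higher in every JAG1 library, by 28.7 percentage points (two-sided exact permutation test, p = 0.1, the smallest that 3 libraries against 3 can give, and 0.2 after adjustment over the 12 shares computed). Notch2 took 57.4 ± 3.45% of the receptor reads in JAG1 and 85.6 ± 0.591% in control astrocytes (SD, n = 3 each). Notch1 rose and Notch2 fell without overlap between the groups, so that these shares follow from those results and are no further support.

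**Figure D2:**
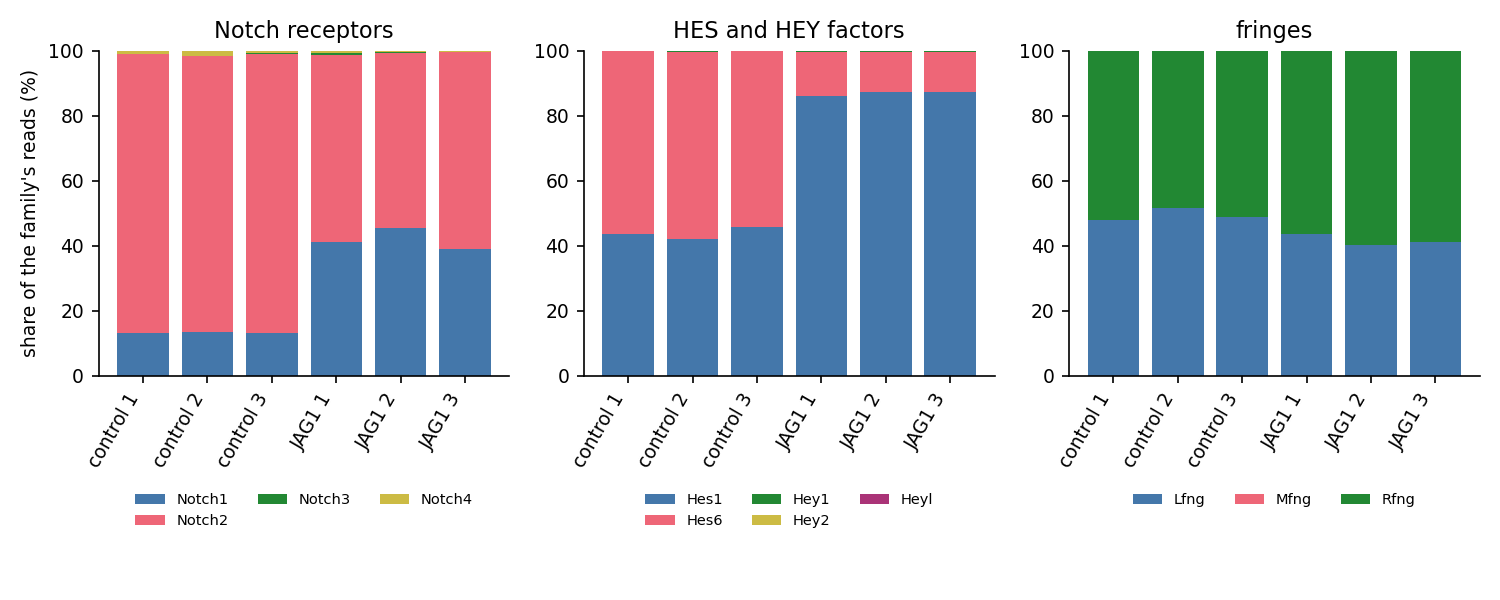
Each stacked bar is 1 library, labelled by group and replicate on the horizontal axis, and its colors give the share of reads, in percent, that each gene takes of the reads of its family. Notch1 takes 13.0% to 13.4% of receptor reads in control and 39.0% to 45.4% in JAG1 libraries, and Hes1 takes 42.2% to 45.6% and 86.2% to 87.4% of HES and HEY reads, while Lfng and Rfng divide the fringe reads nearly evenly in control libraries.

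Of the modulators, Nrarp rose most of the 7 tested genes. It had 61, 70 and 70 reads in control libraries and 403, 267 and 288 reads in JAG1 libraries, which is 3.01, 3.76 and 3.66 CPM against 20.1, 18.4 and 17.5 CPM. Every JAG1 library was far above the control libraries, and the means were 18.7 ± 1.32 CPM and 3.48 ± 0.406 CPM (SD, n = 3 each), or 5.36-fold. In the fit, the change in Nrarp came to 2.43 on the log2 scale (standard error 0.12, 95% interval 2.16 to 2.70, adjusted p = 2.88e-08), and 4.70% of all tested genes changed by more in either direction. For each read of Notch1 there were 0.763, 0.805 and 0.761 reads of Nrarp in control and 1.26, 1.21 and 1.29 in JAG1 libraries, with no overlap between the groups (two-sided exact permutation test, p = 0.1 for this and each of the other 2 ratios computed). Nrarp consists of 1 exon at chr2:25180758-25183339 of GRCm38. In GENCODE release M21 an antisense gene, Gm38287, lies over its last 500 bases, and over those of Notch1, at chr2:26457903-26516663, lie 0610009E02Rik and Gm13568 on the opposite strand. Whether the counting used strand is not given in the sources used here, and none of these 3 genes has a row of its own, so that reads of the partners cannot be told apart from those of Nrarp and Notch1. In RefSeq, Notch1 lies at chr2:26457902-26503822, so that the promoter window shown for it above lies inside the longer GENCODE model. The start of the GENCODE model was not searched for motifs.

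Lfng, the fringe, had 19.4, 20.8 and 17.7 CPM in control and 20.1, 17.8 and 17.4 CPM in JAG1 libraries. The groups overlapped. Lfng was not called, with a log2 fold change of -0.06 (standard error 0.10, 95% interval -0.27 to 0.15, adjusted p = 0.601). Rfng, another fringe, had 425, 363 and 356 reads in control and 519, 383 and 411 in JAG1 libraries and rose by 0.38 on the log2 scale (standard error 0.08, adjusted p = 0.00185), and Mfng had at most 1 read in a library. The share of Lfng among fringe reads was 47.9%, 51.5% and 48.8% in control and 43.7%, 40.3% and 41.0% in JAG1 libraries, lower in all of them (two-sided exact permutation test, p = 0.1, and 0.2 after adjustment over the 12 shares computed). No smaller p-value is possible with 3 libraries against 3. Lfng was not called and Rfng rose, so that this share is no further result about Lfng.

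Dtx4 had the most reads of the 10 genes, and its groups overlapped. It had 155, 144 and 138 CPM in control and 152, 155 and 141 CPM in JAG1 libraries, with means of 145 ± 8.65 CPM and 149 ± 7.32 CPM (SD, n = 3 each). The fitted log2 fold change was 0.04 (standard error 0.06, 95% interval -0.10 to 0.17, adjusted p = 0.624), and its sign turned when control replicate 3 was left out, to -0.0060. Dtx4 lies on chromosome 19, at chr19:12466338-12501454 of GRCm38. Against the median of that chromosome, 0.61, Dtx4 was lower by 0.57 on the log2 scale. Of its 10 nearest tested neighbours, 5 on each side, 8 were higher and none was lower, and the median over the 10 was 0.71. Gm44505 and Zfp91, among the higher ones, had midpoints 296 and 297 kb from that of Dtx4, and whether their rows share reads is not known. The neighbours Cntf and Gm5512, at -0.07 and -0.13, were not called, as Dtx4 was not.

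The other genes were on chromosomes whose median log2 fold change lay between -0.0096 and 0.05, so that their fold changes stayed nearly the same when set against it. For Hes1, on chromosome 16, 4 of the 10 nearest tested genes were higher and 1 was lower, and their median was 0.07 on the log2 scale. Of these neighbours, Cldn1 was at 2.14, above Hes1 itself at 1.91, and Fam43a was at 1.77. Nrarp and Notch1 lie 1.30 Mb apart on chromosome 2. Of the 37 tested genes between them, 8 were higher and 11 lower, and their median log2 fold change was -0.03. Of these, 2 genes, Fut7 and Ptgds, were higher by 2-fold or more, and Entpd2 had the lowest value, -4.73. Of the 10 tested genes nearest to Nrarp, 3 were higher and 3 lower, with a median of -0.02. Of those nearest to Notch1, 6 were higher and none was lower, with a median of 0.27, and the small nucleolar RNA genes Snora43 and Snora17 were at 1.54 and 1.46. The midpoints of Snora43, Snhg7 and Snora17, all among the higher ones, were 157.1, 157.8 and 158.4 kb from that of Notch1. Whether their rows share reads is not known, so that they may not be independent neighbours.

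**Figure D3:**
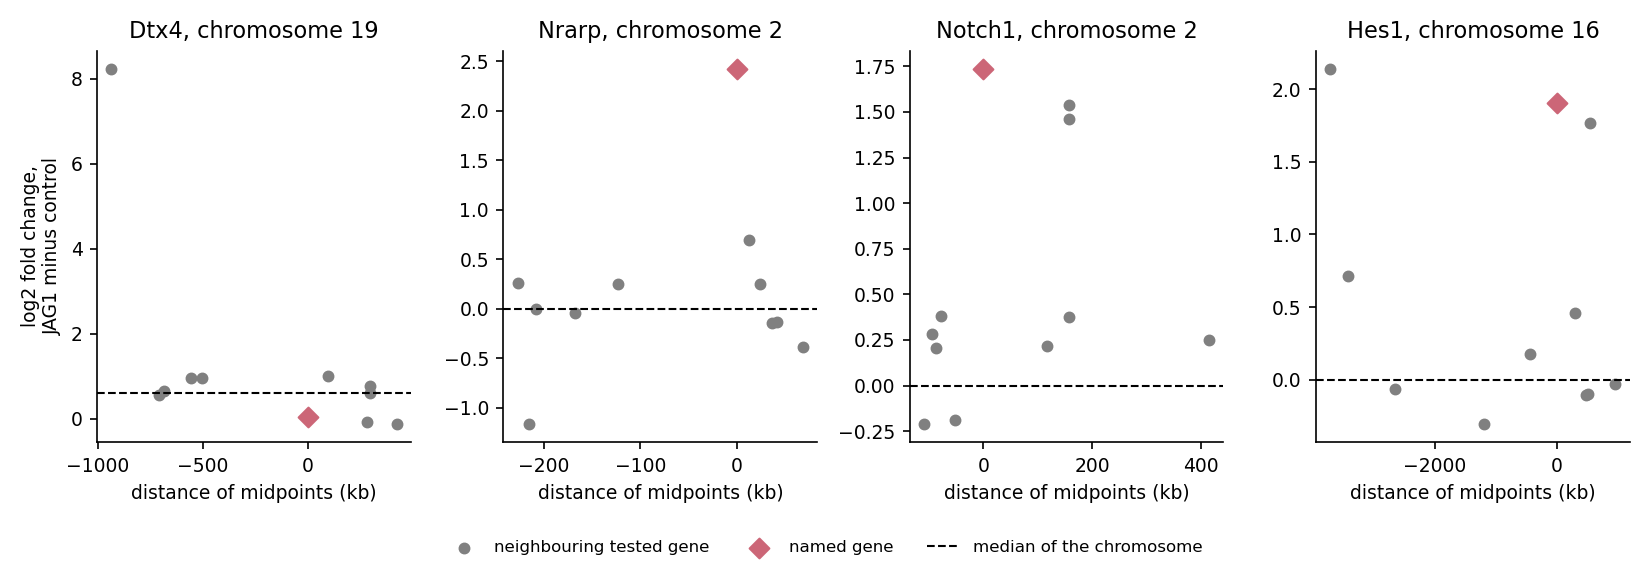
The log2 fold change (JAG1 minus control, vertical axis, on a scale of its own in each panel) of Dtx4, Nrarp, Notch1 and Hes1 (diamonds) is drawn with that of their 10 nearest tested genes (grey points) against the distance of gene midpoints in kb. The dashed line is the median of the chromosome, at 0.61 for chromosome 19, and Dtx4 lies below it while Nrarp and Notch1 lie above all of their neighbours. In the panel of Hes1, the neighbour Cldn1 lies above Hes1.

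Among the targets, Hes1 rose. It had 17.8, 15.0 and 17.4 CPM in control and 58.6, 64.3 and 65.7 CPM in JAG1 libraries. The JAG1 libraries were all high and close to each other, averaging 62.8 ± 3.73 CPM against 16.7 ± 1.49 CPM in control (SD, n = 3 each), or 3.75-fold. Its log2 fold change was 1.91 (standard error 0.09, 95% interval 1.72 to 2.09, adjusted p = 1.15e-08), and 6.30% of all tested genes changed by more in either direction. Hes6, which counteracts Hes1, fell. It had 22.9, 20.5 and 20.7 CPM in control and 9.17, 9.01 and 9.41 CPM in JAG1 libraries. All JAG1 libraries were low and averaged 9.20 ± 0.202 CPM against 21.4 ± 1.35 CPM in control (SD, n = 3 each), or 2.32-fold lower. On the log2 scale the change was -1.21 (standard error 0.09, 95% interval -1.42 to -1.01, adjusted p = 7.89e-07).

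The 2 changes turned the order of Hes1 and Hes6 around. There were 0.776, 0.735 and 0.841 reads of Hes1 for each read of Hes6 in control libraries and 6.39, 7.13 and 6.97 in JAG1 libraries. Hes6 thus had more reads in every control library and Hes1 in every JAG1 library (two-sided exact permutation test, p = 0.1). Hes1 rose and Hes6 fell without overlap between the groups, so that their ratio had to separate the groups. Its p-value is no support beyond the results of the 2 genes. Hes1 made up 86.9 ± 0.654% of the reads of Hes1, Hes6, Hey1, Hey2 and Heyl in JAG1 and 43.8 ± 1.73% in control astrocytes (SD, n = 3 each). The summed level of these genes was 40.7, 35.6 and 38.2 CPM in control and 68.0, 73.6 and 75.3 CPM in JAG1 libraries, higher in all of the latter (two-sided exact permutation test, p = 0.1). Nearly all of these reads were of Hes1 and Hes6, so that this sum follows from their results and is no further support.

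The HEY genes stayed at or near the limit of detection. Hey1 had 1, 3 and 1 reads in control and 5, 4 and 4 reads in JAG1 libraries. Summed, 5 and 13 reads make a rate 2.95 times as high in JAG1 libraries, with a 95% interval of 0.988 to 10.6 (exact Clopper-Pearson, counting error only). Hey1 was also not called when the filter on low counts was dropped (log2 fold change 1.49, standard error 0.91, adjusted p = 0.206). Hey2 and Heyl had 0 reads in all 6 libraries, or 0 of 109186553 reads, which allows a level of up to 0.0275 reads per 1e6. Hes5, a HES gene typical of neural progenitors, likewise had 0 reads in all of them. A change in these 3 genes was not detectable at this depth.

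**Figure D4:**
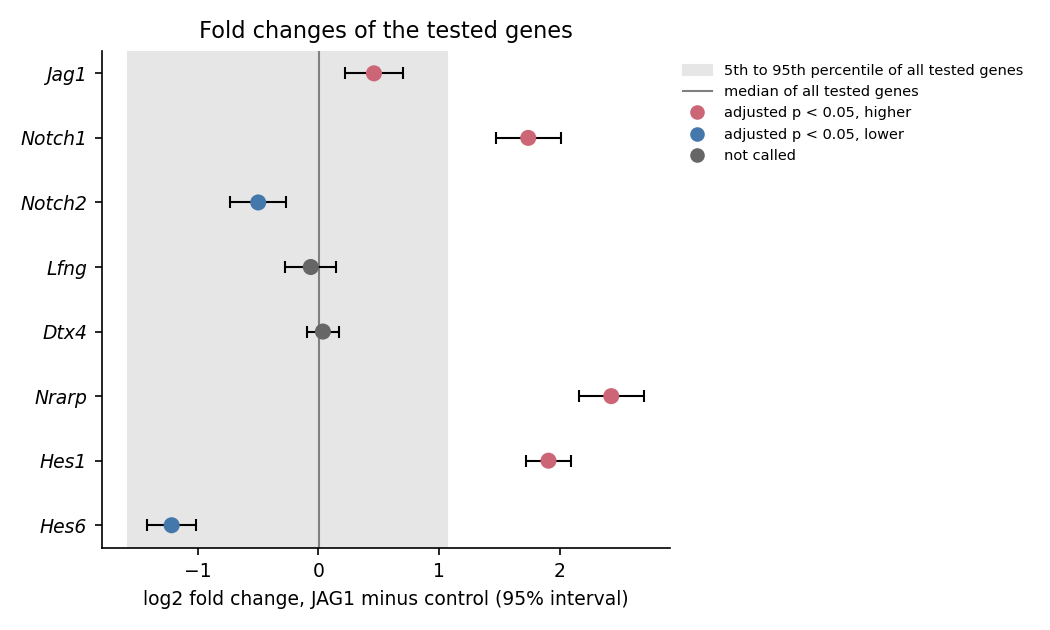
Points give the log2 fold change, JAG1 minus control, of Jag1 and of the 7 tested genes on the horizontal axis, with bars for the 95% interval and colors for the call. The grey band spans the 5th to the 95th percentile of all tested genes, from -1.58 to 1.06: Notch1, Nrarp and Hes1 lie above it, and the others within it.

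Beyond these 10 genes, a list of 91 genes of the Notch pathway, written from general knowledge, was read by role. Of its 70 tested genes, 19 were higher and 24 lower, or 27.1% and 34.3%, beside 27.4% and 27.7% of all tested genes. At 2-fold or more 4 were higher and 9 lower, and the median over the tested genes was -0.07 on the log2 scale. Of the DNA-binding and nuclear partners, 6 of 23 tested were higher and 8 lower. Rbpj, the DNA-binding partner of Notch, fell slightly, from 69.3, 70.6 and 72.9 CPM to 59.6, 60.8 and 55.0 CPM (log2 fold change -0.28, adjusted p = 0.00312). The largest rise of this role was that of Kat2b, a histone acetyltransferase, with 0.97 (adjusted p = 1.13e-05), and the largest fall that of L3mbtl3, a methyl-lysine reader, with -1.47 (adjusted p = 6.96e-05).

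For the ligand side, Neurl1b stood at the top of the list. This neuralized ubiquitin ligase, which promotes uptake of Notch ligands, had 72.5, 66.5 and 60.5 CPM in control and 655, 613 and 618 CPM in JAG1 libraries. All JAG1 libraries were high, at 9.45-fold (log2 fold change 3.24, standard error 0.07, adjusted p = 6.87e-11). Mib1 and Mib2, the other tested ligases of this role, were not called, with adjusted p-values of 0.0909 and 0.707. Dlk2, a non-canonical ligand, fell from 11.9, 13.6 and 9.89 CPM to 3.54, 2.96 and 3.34 CPM (log2 fold change -1.84, adjusted p = 1.95e-06).

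On the receptor side, 1 of 6 tested glycosylation genes was higher and 3 were lower. Gxylt2, a xylosyltransferase for the sugars of Notch, fell from 54.3, 56.3 and 62.0 CPM to 5.68, 6.06 and 5.65 CPM (log2 fold change -3.31, adjusted p = 3.45e-10). For cleavage, 3 of 9 were higher and 2 lower. Adam10, the protease that makes the first cut after ligand binding, had the largest rise of this role, 0.35 (adjusted p = 0.00353), and Aph1c, a gamma-secretase subunit with 13 to 14 reads in control and 1 to 4 in JAG1 libraries, the largest fall, -2.09 (adjusted p = 0.00387). In trafficking and turnover, 1 of 9 was higher and 3 were lower. Numb, an inhibitor of Notch, rose by 0.90 (adjusted p = 0.0138) and its relative Numbl was lower, with -0.62 (adjusted p = 1.96e-05).

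**Figure D5:**
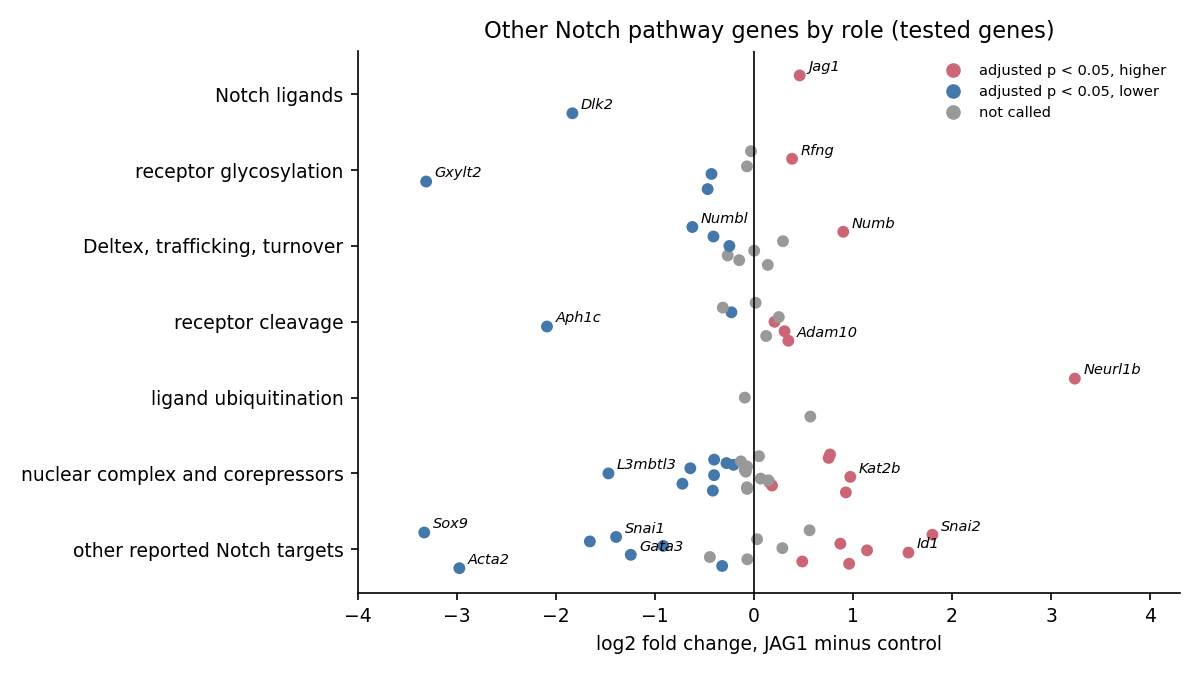
The log2 fold change, JAG1 minus control, of the 70 tested genes of the pathway list is on the horizontal axis and their role on the vertical axis, with the small vertical offsets for legibility only. Colors give the call, and the genes farthest to either side are Neurl1b at 3.24 and Sox9 at -3.33.

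Of 20 further genes that have been reported as Notch targets in some tissue, 18 were tested, and 6 were higher and 7 lower, or 33.3% and 38.9%, beside 27.4% and 27.7% of all tested genes. Snai2, a repressor of the Snail family, had the largest rise, from 1.68, 1.29 and 2.35 CPM to 6.08, 6.81 and 5.77 CPM (log2 fold change 1.80, adjusted p = 2.26e-05). Snai1, of the same family and with more reads in every library, fell. Its mean was 43.3 CPM in control and 16.5 CPM in JAG1 libraries (log2 fold change -1.39, adjusted p = 2.45e-07). Ccnd1, which encodes cyclin D1, rose by 0.96 (adjusted p = 5.15e-08), and Id1 and Id3, inhibitors of basic helix-loop-helix factors, by 1.56 and 1.14 (adjusted p = 1.34e-07 and 1.06e-08). Sox9, a glial transcription factor that is also one of the astrocyte markers, had the largest fall, from 186, 180.0 and 177 CPM to 18.1, 19.1 and 16.6 CPM (log2 fold change -3.33, adjusted p = 5.31e-11). Acta2 and Pdgfrb, which are also among the fibroblast or mural markers, had log2 fold changes of -2.98 and -1.66 (adjusted p = 5.31e-11 and 3.74e-08).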

How the data were processed

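Total RNA for 6 libraries was isolated with Trizol and made into libraries with the QuantSeq 3′ kit. The authors deposited raw counts per gene and the log2 of a normalized count for each library. The submitters' processing notes name Bowtie2, bedtools, edgeR and the builds GRCm38 and mm10, without roles or versions; how reads were counted and normalized, and the annotation, are not given in the sources used here. The deposited counts were used throughout and the deposited log2 values for an alternative only.

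Genes were filtered with edgeR 4.0.16 (filterByExpr, minimum count 10), normalized by TMM and compared with the quasi-likelihood test in R 4.3.3, with Benjamini-Hochberg adjustment over all tested genes and a threshold of 0.05. Standard errors and 95% intervals were derived from the F statistic. CPM are reads per 1e6 of the normalized library size, and the limit of detection was set at 3 counts, between 0.148 and 0.206 CPM, for counting error only. Shares and ratios were compared by exact permutation over libraries. Names and positions came from RefSeq GRCm38.p6 and GENCODE M21. The alternatives included DESeq2 1.42.0 and limma 3.58.1.

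The named genes were the 10 members, Jag1, the other receptors and ligands, and, in every role, those called with the largest rise or fall. Rbpj, Mib1, Mib2, Mfng, Hes5, Ccnd1, Id1, Id3, Snai1, Acta2, Pdgfrb and the neighbouring genes were added after their values were seen, and so were the promoters of Lfng and Hey2, the search for motifs, the read ratios, and the comparison with chromosomes and neighbours. The members and lists were chosen with earlier results of these data known.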

Additional observations from a re-analysis of the deposited data

How the results depend on the processing

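Over 14 alternatives (DESeq2, limma-voom, upper-quartile normalization, normalization by library size alone, a mean of at least 10 counts, no filter on low counts, the authors' normalized log2 values with limma, a replicate block, and each of the 6 libraries left out in turn) the calls of Hes1, Hes6, Nrarp, Notch1, Notch2 and Jag1 and the lack of a call for Lfng and Dtx4 did not change. The log2 fold change ran from 1.84 to 1.96 for Hes1, 2.33 to 2.48 for Nrarp, 1.65 to 1.80 for Notch1, -1.24 to -1.16 for Hes6 and -0.58 to -0.41 for Notch2, whose adjusted p reached 0.0119. Dtx4 changed its sign without control replicate 3: with 1 library left out its log2 fold change ran from -0.0060 to 0.085, and the adjusted p from 0.265 to 0.941 over all alternatives; the cause was not tested. The requirement of a 2-fold change, which by construction drops smaller changes, left 639 genes higher and 994 lower of all tested, 1 of the 10 genes lower, and 4 higher and 9 lower of the pathway list. With the replicate block, 3380 genes were higher and 3331 lower. Deviations from the group means correlated across genes by 0.148, 0.0614 and 0.119 for same-numbered libraries, each library most with its own number. Libraries with different numbers correlated by -0.144 to 0.0109. The main fit did not take the numbers as pairs, because not every pair was over a limit of 0.1. That limit cannot decide whether same-numbered libraries shared a batch, which was not tested. With the replicate block the calls named above did not change. With 3 libraries per group no exact permutation p could fall under 0.1, and depth limited what could be seen of Hey1, Hey2 and Heyl.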

Other observations

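The coefficient of variation of the 7 tested Notch genes over the 3 control libraries lay between 5.95% for Dtx4 and 11.7% for Nrarp. Tested genes of the pathway list lay on either side of this range. Kat2a, a histone acetyltransferase, was at 0.827%, Sox9 at 2.57% and Rbpj at 2.60%, and the genes described next, chosen after their values were seen, were above it. Myc, a growth regulator, had 5.63, 10.6 and 18.2 CPM in them, a coefficient of variation of 55.1%, and Ephb4, an ephrin receptor, had 48.0, 95.6 and 117 CPM, or 40.6%. Numb had 2.07, 4.03 and 5.02 CPM in the control libraries, or 40.4%. For all 3 of these genes control replicate 1 was the lowest of the group.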
